A study of Rattus norvegicus with 12 samples.

Results

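Complement is a cascade of plasma and tissue proteins and their cell-surface receptors, and 9 of its genes were followed on 12 single-colour arrays of rat nerve, ganglion and spinal cord. They were C1qa, C1qb, C1qc, C1s, C2, C3, Cfb, C3ar1 and C5ar1, chosen by name and matched through the RefSeq accession of each probe. All 9 were found among the 15159 genes that the array's probes could be matched to, and C2 had 2 probes where the others had 1.

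In the classical pathway, C1q binds antibody, debris or damaged membranes, and its partner proteases C1r and C1s then cut C4 and C2 to build the convertase that splits C3. The alternative pathway reaches C3 through factor B, which amplifies the cleavage, and the small fragments C3a and C5a act on the G protein-coupled receptors C3AR1 and C5AR1 of myeloid cells. In peripheral nerve, complement is known for tagging degenerating myelin and drawing in macrophages, and in the central nervous system C1q and C3 are known as products of microglia and astrocytes.

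The study asked how an intraneural injection of the myelin basic protein peptide MBP84-104 (50 μg in 5 μL) alters gene expression, and whether T cell-deficient rats differ. Wild-type rats are labelled Sprague-Dawley, at day 12 after the injection, and athymic nude rats are labelled Hsd:RH-Foxn1rnu, at day 7. The Foxn1 mutation leaves nude rats without a thymus, and the paper describes their T cell populations as depleted, while B cells, natural killer cells and macrophages remain. All animals were adult females, and each array held RNA pooled from 3 of them. For each rat type and tissue, 1 array held the injected left sciatic nerve, the left dorsal root ganglia (DRG) or the left dorsal part of the lumbar spinal cord. The other array of the pair held the right nerve, which received PBS, the right DRG, or the left dorsal cord above the lumbar enlargement. There were therefore 6 pairs with 1 array per arm, and wild-type and nude arrays differ, by their labels, in strain and day as well as in T cells. By the paper, both nerves and both cord segments of a rat type came from the same animals.

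The paper gives a larger group size and the same time point, a week, for both rat types, and its behavioural tests set nude rats against heterozygous rnu+/- rats, so the day, the number of animals and the strain of the wild-type rats are uncertain. The 2 arrays of each pair shared a slide, but the wild-type DRG and cord arrays lay on a slide of their own, so in these tissues the slide cannot be told apart from the rat type. The median spot signal lay between 23.5, on the injected nude nerve, and 122, and between 59.5% and 76.9% of spots were well above background. Tissue labels were checked with marker genes. Summed signals of 8 sensory neuron markers, in units of the array median, were 858 to 1085 in DRG, 7.3 to 12.0 in nerve and 87.6 to 137 in cord, and those of 6 central glial markers were 530 to 774 in cord and at most 12.5 elsewhere.

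Levels are log2 signals above the median of their array, so 1 unit is 2-fold. They compare arrays for 1 gene and not genes with each other, because probes differ in brightness. Of the 108 levels of the 9 genes, 104 were well above background. The 4 below it were all of C3ar1, in the contralateral nude DRG, both nude cords and the lumbar wild-type cord. RNA came from whole tissue, in which fewer cells of a type and less RNA per cell cannot be told apart.

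The bases before the gene starts are shown for the genes that the results below set apart. These are C1qa and C1qb, subunits of 1 protein whose tissue orders differed, and C3, the gene that departed most from the rest. Each run holds the 250 bases before the RefSeq start on the GRCr8 assembly, and capitals mark matches to 1 of 6 motifs on either strand.
C1qa (chr5:154419934-154420183, minus strand): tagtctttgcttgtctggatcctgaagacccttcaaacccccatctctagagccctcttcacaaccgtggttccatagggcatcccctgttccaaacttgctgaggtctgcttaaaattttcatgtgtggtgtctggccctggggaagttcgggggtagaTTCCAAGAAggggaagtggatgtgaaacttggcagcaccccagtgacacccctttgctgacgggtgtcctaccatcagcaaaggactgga
C1qb (chr5:154407828-154408077, minus strand): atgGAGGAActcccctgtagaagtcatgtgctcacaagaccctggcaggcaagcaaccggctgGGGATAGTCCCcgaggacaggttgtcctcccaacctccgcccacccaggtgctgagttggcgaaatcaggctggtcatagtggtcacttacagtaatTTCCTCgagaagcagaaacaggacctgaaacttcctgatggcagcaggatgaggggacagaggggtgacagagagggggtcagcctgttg
C3 (chr9:2201340-2201589, minus strand): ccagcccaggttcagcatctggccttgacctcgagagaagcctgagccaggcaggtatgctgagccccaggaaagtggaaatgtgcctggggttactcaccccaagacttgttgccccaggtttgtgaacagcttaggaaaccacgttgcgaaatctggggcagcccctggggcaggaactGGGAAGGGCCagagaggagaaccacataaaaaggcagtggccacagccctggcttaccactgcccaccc

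The motifs searched were the PU.1 core GAGGAA, the interferon-stimulated response element core GAAANNGAAA, the gamma-activated site core TTCNNNGAA, the NF-kB core GGGANNNNCC, the C/EBP core TTGCNNNAA and the TATA box core TATAAA. PU.1 is a transcription factor of the myeloid lineage, and NF-kB is one of the inflammatory response. GAGGAA was matched in the C1qb run at positions -247 and -90 from the start and in 23.2% of 27457 promoter runs of this length. GGGANNNNCC was matched in the C3 run at position -69, in the C1qb run as an overlapping pair of matches, and in 16.6% of all runs. TTCNNNGAA was matched in the C1qa run at position -90 and in 7.57% of all runs. The other 3 motifs, which 3.35%, 8.15% and 13.2% of all runs hold, had no match in these runs. Matches of letters are a description and not evidence of binding.

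The 9 genes were first set side by side over the tissues. Of these genes, 8 were higher in the sciatic nerve than in the DRG and also higher in the nerve than in the dorsal cord, and C3 was the exception. These tissue differences were tested with limma over all 12 arrays, 4 per tissue, with rat type and arm as terms and Benjamini-Hochberg adjustment over 12071 genes. All 12 arrays were taken as independent, although by the paper both nerve arms, and both cord arms, shared animals. In that fit, 31.2% of all genes were higher and 11.4% lower in nerve than in DRG, and 37.9% were higher and 26.6% lower in nerve than in cord, against 8 of 9 complement genes higher in both contrasts and 1, C3, lower in nerve than in cord. The median difference of the 9 genes was 2.17 for nerve minus DRG and 3.03 for nerve minus cord, where the medians over all genes were 0.20 and 0.22.

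**Figure D1:**
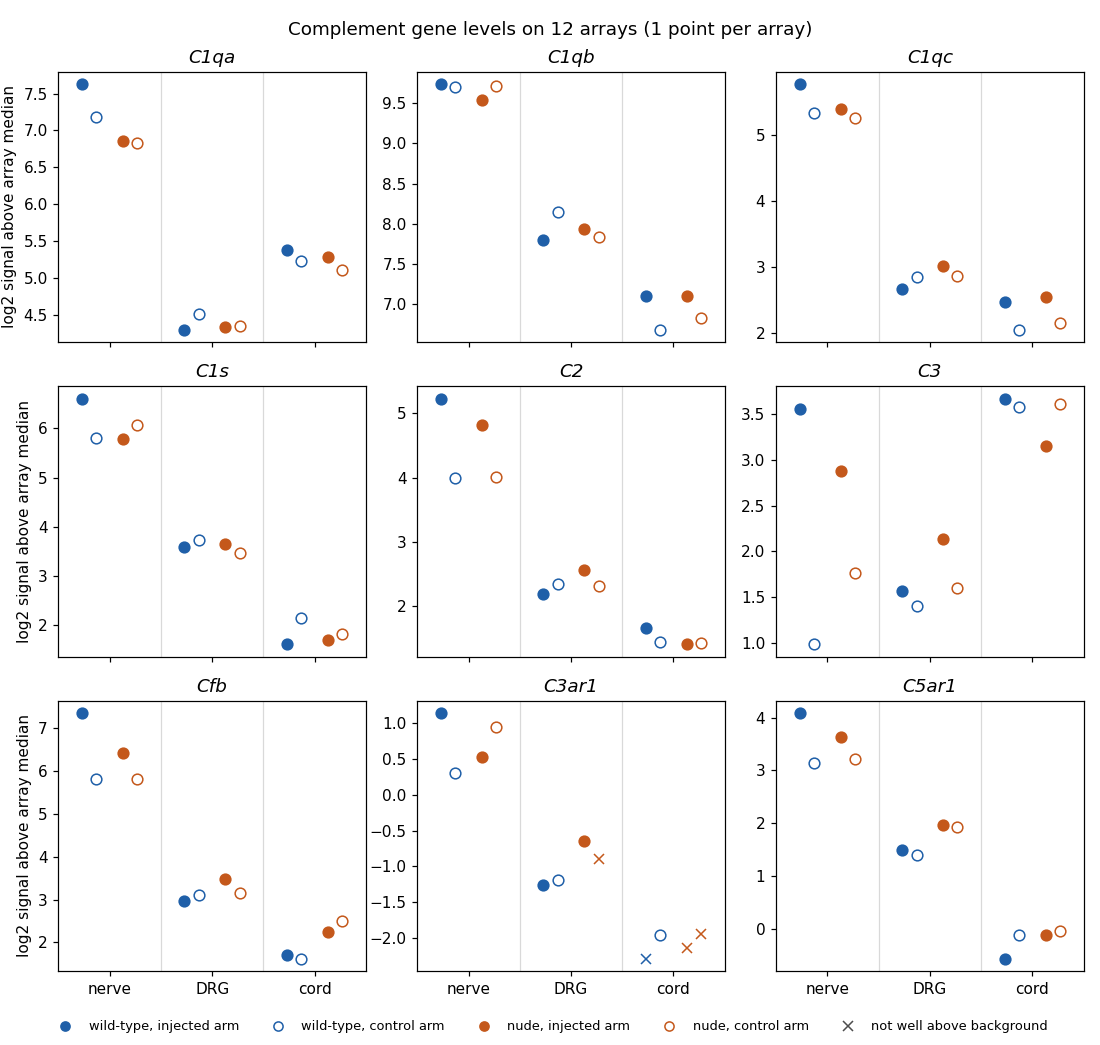
Levels of the 9 complement genes on each of the 12 arrays, as log2 signal above the array median, with a scale of its own in each panel. Points are single arrays, filled for the injected arm (lumbar for cord) and open for the control arm, blue for wild-type and orange for nude rats, and crosses are C3ar1 levels that were not well above background; in every panel but that of C3 the 4 nerve arrays lie above all others.

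C1qa, C1qb and C1qc encode the 3 chains that assemble into C1q, the recognition subunit. The C1qa level was 7.63 in the injected and 7.18 in the contralateral wild-type nerve, 6.86 and 6.84 in the nude nerve, 4.29 to 4.51 in DRG and 5.10 to 5.38 in cord. Its order was nerve, cord, DRG, without overlap between tissues, and it was 6.76-fold higher in nerve than in DRG (log2 difference 2.76, SE 0.16, limma adjusted p = 2.94e-07). Between DRG and cord it was lower in DRG by a log2 difference of -0.88 (SE 0.16, limma adjusted p = 0.000647). Within the first slide that difference was -0.86 and within the second -0.91, both past the threshold.

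C1qb took the other order. Its level was 9.74 and 9.70 in the injected and contralateral wild-type nerve, 9.54 and 9.72 in the nude nerve, 7.80 to 8.15 in DRG and 6.68 to 7.11 in cord. It was higher in DRG than in cord by 1.01 (SE 0.15, limma adjusted p = 0.000183). C1qc followed C1qb, with levels of 5.26 to 5.76 in nerve, 2.66 to 3.02 in DRG and 2.05 to 2.55 in cord, and it was 0.54 higher in DRG than in cord (SE 0.15, limma adjusted p = 0.00996). That last difference was 0.59 within the first and 0.50 within the second slide, with adjusted p-values of 0.100 and 0.0939. So the chain genes of 1 complex shared their highest tissue, while in the main fit C1qa was lower and C1qb and C1qc were higher in DRG than in cord. With normexp background correction the DRG minus cord difference was 0.46 for C1qb (limma adjusted p = 0.173) and 0.10 for C1qc (limma adjusted p = 0.704). Neither was then called.

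C1s, the protease that C1q sets in motion, and C2, the part of the C3 convertase that C1s cuts, both fell in the order nerve, DRG, cord. C1s levels were 5.78 to 6.61 in nerve, 3.47 to 3.72 in DRG and 1.60 to 2.13 in cord, and it was 19.1-fold higher in nerve than in cord (log2 4.26, SE 0.19, limma adjusted p = 1.21e-08). C2 levels were 4.00 to 5.23 in nerve, 2.18 to 2.55 in DRG and 1.41 to 1.65 in cord. Cfb, the gene of factor B, had a still wider range, at 5.80 to 7.35 in nerve, 2.96 to 3.48 in DRG and 1.62 to 2.51 in cord. Its level was 9.03-fold higher in nerve than in DRG and 20.1-fold higher in nerve than in cord (log2 4.33, SE 0.31, limma adjusted p = 3.32e-07).

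The receptor genes had the same order as C1s, C2 and Cfb. C5ar1, the receptor gene for C5a, had levels of 3.13 to 4.09 in nerve, 1.39 to 1.96 in DRG and -0.57 to -0.04 in cord, and was 13.2-fold higher in nerve than in cord (log2 3.73, SE 0.22, limma adjusted p = 8.01e-08). C3ar1, the receptor gene for C3a, was dim. It was well above background on all 4 nerve arrays, at 0.30 to 1.14, on 3 of 4 DRG arrays and on 1 of 4 cord arrays, so its nerve-to-cord difference of 2.82 (SE 0.21, limma adjusted p = 4.01e-07) rests on background values on 3 cord arrays.

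C3, the protein on which all complement pathways converge, departed from the rest. Its level was 3.55 in the injected and 0.99 in the contralateral wild-type nerve, 2.88 and 1.77 in the nude nerve, 1.41 to 2.13 in DRG and 3.15 to 3.67 in cord. Thus 3 of 4 cord arrays lay above the injected wild-type nerve, and both contralateral nerves lay far below every cord array. C3 was lower in DRG than in cord by a log2 difference of -1.82 (SE 0.39, limma adjusted p = 0.00219). It was lower in nerve than in cord by -1.21 (SE 0.39, limma adjusted p = 0.0188). With slide as a term the nerve-to-cord difference was -1.21 with a limma adjusted p of 0.0903, and within the first slide it was -1.05 with an adjusted p of 0.197. The DRG-to-cord difference was -1.51 (adjusted p = 0.0847) within the first slide and -2.14 (adjusted p = 7.3e-05) within the second.

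Between nerve and DRG, C3 differed by 0.62 (95% confidence interval -0.24 to 1.48, limma adjusted p = 0.235). The 4 nerve arrays of C3 spread over 2.56 units. The nerve-to-cord call was lost without the wild-type contralateral nerve (-0.80, adjusted p = 0.0613), without the rostral nude cord (-1.03, adjusted p = 0.0626) or without the rostral wild-type cord (-1.02, adjusted p = 0.0635). Without the wild-type contralateral nerve, C3 was also called higher in nerve than in DRG (1.02, adjusted p = 0.0334). Restricted to the 6 control-arm arrays, C3 was lower in nerve than in cord by -2.22 (limma adjusted p = 0.000157) and differed between nerve and DRG by -0.13 (adjusted p = 0.726).

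**Figure D2:**
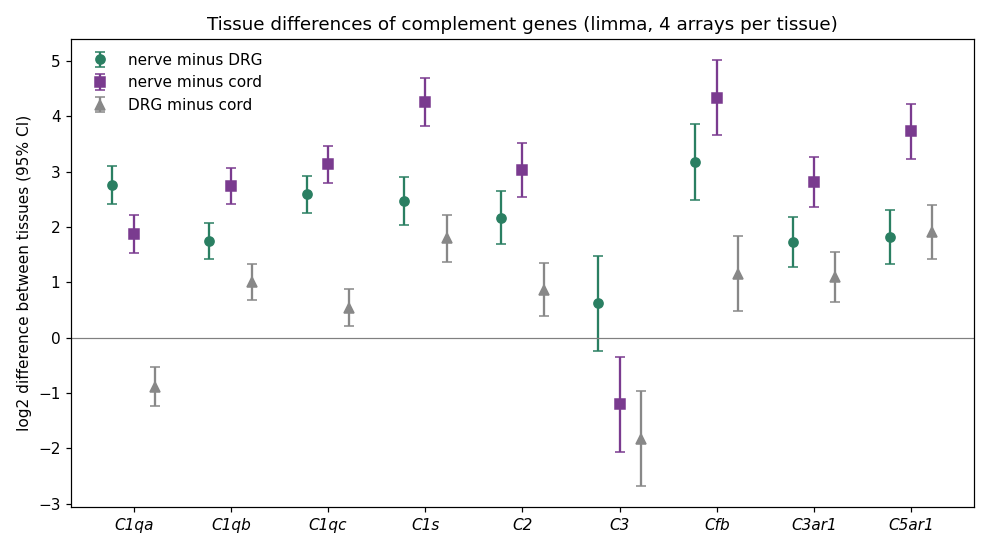
Log2 differences between tissues for each gene from the limma fit over 12 arrays, with 95% confidence intervals as bars; circles are nerve minus DRG, squares nerve minus cord and triangles DRG minus cord. Only C3 has a nerve minus cord value below 0, and C1qa and C3 have DRG minus cord values below 0.

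Between DRG and cord, 7 of the 9 genes were higher in DRG and 2, C1qa and C3, were lower, where 27.8% and 32.1% of all genes were called in these directions. Within the first slide 4 were higher and 1 was lower, and within the second 6 were higher and 2 lower. Macrophage markers moved with the nerve levels: the summed signal of 10 such genes was 333 to 602 in nerve, 126 to 159 in DRG and 189 to 207 in cord, so its order was that of C1qa. The part of macrophages in these tissue differences was not tested.

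Across the 12 arrays, the 8 genes other than C3 had Pearson correlations of 0.64 to 0.99 with each other, and C3 had correlations of -0.42 to 0.14 with them. These points share tissues, and the spread between tissues sets most of each value. Among 10372 genes, those with the pattern most like C3 were Clu (r = 0.94), Fcgr3a (r = 0.93) and C1qtnf5 (r = 0.93). Clu encodes clusterin, an inhibitor of the terminal complex, and Fcgr3a encodes an activating Fc receptor. The genes most like C1s were Nrros (r = 0.997), Clic1 (r = 0.995) and C1r (r = 0.995), and C1r is the gene of the other protease of the C1 complex. For C1qb they were Cma1, Fap and Fkbp10, and for C1qc they were Rpl3, Tpsab1 and Tpsb2, with r of 0.99 for all 6, and Cma1, Tpsab1 and Tpsb2 are mast cell protease genes. The nearest patterns were Acsl5, Gpx3 and Lrrc59 (r of 0.97 to 0.98) for C1qa, Ugdh, Ptpru and Tnfaip8l2 (r of 0.99 to 1.00) for C2, and Tnfaip8l2, Gpx1 and Cyp2d5 (r of 0.99) for Cfb. For the receptors they were Rac2, H3f3b and Il18bp (r = 0.99) for C3ar1 and Dnase2, Igsf6 and Igfbp7 (r = 0.99) for C5ar1.

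The next comparison asked how the injected nerve differed from the contralateral nerve. All 9 genes had a higher level on the injected than on the contralateral wild-type array, and 3 were at least 2-fold higher, C3, Cfb and C2. Among all 10213 genes measured in this pair, 4569 were higher, the share that was 2-fold or more higher was 4.68% and the share that was lower by as much was 4.08%. The median log2 ratio of the 9 genes was 0.84 and that of all genes was -0.05. With 1 array per arm these are differences between 2 arrays, with no replicate check.

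C3 showed the widest difference. Its level of 3.55 against 0.99 in the wild-type nerve is a 5.91-fold ratio (log2 2.56), and 2.88 against 1.77 in the nude nerve is a 2.16-fold ratio (log2 1.11). It was the 1 gene of the 9 at least 2-fold higher in the nude nerve, where 7.52% of 9456 genes were higher and 13.5% lower by that much. Cfb was at 7.35 against 5.80 in the wild-type nerve, a 2.93-fold ratio, and at 6.42 against 5.82 in the nude nerve, a 1.51-fold ratio. The contralateral nerves of both rat types were nearly level for Cfb, and the injected nerves were both above them.

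C2 gave the third 2-fold difference. Its level was 5.23 against 4.00 in the wild-type nerve (2.35-fold) and 4.82 against 4.01 in the nude nerve (1.75-fold). The other C2 probe read 5.07 against 3.95 and 4.56 against 4.03, which is the same direction in both. In the nude DRG the C2 probes differed in direction, with 2.55 against 2.32 for the one used and 1.94 against 2.29 for the other.

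The receptor genes were over 1.5-fold higher in the injected wild-type nerve without reaching 2-fold. C5ar1 was at 4.09 against 3.13 in the wild-type nerve (1.94-fold) and at 3.63 against 3.21 in the nude nerve (1.34-fold). C3ar1 was at 1.14 against 0.30 in the wild-type nerve (1.79-fold) and at 0.53 against 0.95 in the nude nerve, a log2 ratio of -0.42 in the opposite direction. C1s also had opposite signs, with 6.61 against 5.81 in the wild-type nerve (1.74-fold) and 5.78 against 6.08 in the nude nerve, a log2 ratio of -0.30. The median log2 ratio over all genes of the nude nerve pair was -0.38, and relative to it C3ar1 was at -0.03 and C1s at 0.08. In both pairs the C1q chains differed little: the log2 ratios of C1qa, C1qb and C1qc were 0.45, 0.04 and 0.43 in the wild-type nerve and 0.02, -0.17 and 0.14 in the nude nerve. C1qb was nearly level over all 4 nerve arrays.

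The nude nerve pair needs its own scale, because the median of all genes shifted there. The median log2 ratio over all its genes was -0.38, and relative to that median the 9 genes had a median of 0.52, C3 was 2.82-fold higher, C2 was 2.29-fold higher and Cfb was 1.97-fold higher. The injected nude nerve was the dimmest of the 12 arrays. After normexp background correction all genes had a median of -0.87 in this pair, C3 had a log2 ratio of 0.16, and C1qa, C1qb and C1s were at least 2-fold lower. Cfb, C2 and C5ar1 then had log2 ratios of -0.49, -0.24 and -0.46, so their direction in the nude nerve depended on the background correction. In the wild-type nerve 9 alternative settings gave log2 ratios of 1.91 to 2.67 for C3, 1.49 to 1.67 for Cfb and 1.18 to 1.34 for C2.

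**Figure D3:**
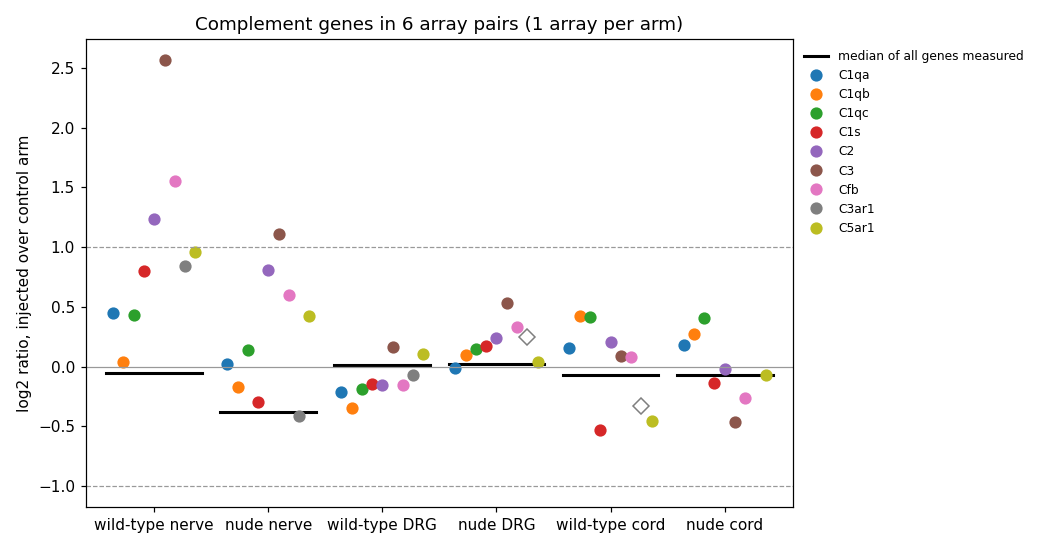
Log2 ratios of the injected over the control arm for the 9 genes in the 6 array pairs, 1 point per gene. Black bars are the median over all genes measured in the pair, dashed lines mark 2-fold, and open diamonds are C3ar1 ratios with a background value on 1 array; the wild-type nerve points all lie above 0 and no DRG or cord point passes 2-fold.

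With both rat types as a pair of replicates, limma tested the part of the injected to contralateral difference that they share. C3, at 1.84 (SE 0.36, limma adjusted p = 2.71e-05), and Cfb, at 1.07 (SE 0.36, limma adjusted p = 0.0387), were called higher, which is 2 of 9 genes where 3.59% of 10725 genes were called higher and 4.73% lower. C2, at 1.02, had a limma adjusted p of 0.0528, C5ar1, at 0.69, had 0.249, and the other 5 genes had adjusted p-values of 0.689 to 0.932. In this fit limma set the same SE for every gene, so the calls rank genes by their mean difference alone and do not weigh how far the rat types differ for that gene. None of the 9 was called with the 75th percentile scaling or with normexp, where the adjusted p of C3 was 0.0827 and 0.715. The limma adjusted p of C3 was 0.0217 with 1 fit over all 12 arrays and 0.0439 with the authors' deposited log2 values. Both injected nerves were above both contralateral nerves for 5 of the 9 genes, C1qc, C2, C3, C5ar1 and Cfb, where this held for 18.7% of all genes and the reverse for 38.4%.

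The wild-type ratio exceeded the nude ratio for all 9 genes. The difference between the log2 ratios was 1.45 for C3, 1.25 for C3ar1, 1.10 for C1s and 0.95 for Cfb, and between 0.21 and 0.53 for the other 5 genes. The median of that difference over all 9399 genes was 0.35, so most genes had a higher wild-type ratio, and C1qb and C1qc lay below that median. Among all genes C1qa, C2 and C5ar1 lay at percentiles 57.8, 57.1 and 68.5, and C3, C3ar1, C1s and Cfb at 94.0 to 99.1. With 1 array per condition the difference between rat types could not be tested, and labelled strain, labelled day and array brightness cannot be told apart from the rat type.

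Cell type markers moved in the same arrays. All 10 macrophage markers were higher in the injected than in the contralateral wild-type nerve, 3 of them at least 2-fold, with a median of 0.71, and 6 of 10 were higher in the nude nerve, with a median of 0.19. Their summed signal, in units of the array median, was 602 against 333 in wild-type and 468 against 379 in nude nerve. Microglial markers gave a different picture, with medians of 0.50 in wild-type and 0.57 in nude nerve. On the injected side 4 of the 6 had the higher level in wild-type rats, 1 of them at least 2-fold. In nude rats 5 of the 6 did, 2 of them at least 2-fold. The summed microglial signal was 387 against 274 in wild-type and 336 against 185 in nude nerve. All measured neutrophil markers, 4 in wild-type and 2 in nude nerve, were higher on the injected side, and S100a9 had log2 ratios of 3.44 in wild-type and 2.23 in nude nerve. In the wild-type pair S100a8, Cxcr2 and Camp were above background on the injected array only, which fixed their direction. In the nude pair Camp was above background on the contralateral array only and was left out. All 3 measured adipocyte markers were at least 2-fold lower in both injected nerves, and all 6 Schwann cell markers were lower in both. Of 5 skeletal muscle markers, all were higher on the injected wild-type array, 4 of them at least 2-fold, and 2 of 3 were at least 2-fold lower in the nude nerve. Of 7 T cell markers, 5 were measured in the wild-type nerve pair, where 4 were higher on the injected side and 2 of them at least 2-fold (median 0.39), and 2 in the nude nerve pair, where 1 was at least 2-fold higher (median 0.36). Of these 7, Cd3d was well above background on all 12 arrays of both rat types, Cd3g on 10, Cd3e on none and the others on 4 or fewer. Cd8a in wild-type nerve, Ckm in nude nerve and Cidec in both were above background on 1 array only, which fixed their direction too. The part of these cells in the complement differences was not tested.

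The rest of the cascade gave a mixed picture. Of 41 other complement genes listed, 34 were on the array, and 22 were measured in the wild-type nerve pair, of which 13 were higher on the injected side, 4 of them at least 2-fold, with a median of 0.16. Among all genes of that pair 4569 of 10213 were higher, 4.68% at least 2-fold, with a median of -0.05. In the nude nerve pair 9 of 21 were higher, 3 of them at least 2-fold, and 1 was lower by 2-fold or more, with a median of -0.12. Among all genes of the nude pair 2657 of 9456 were higher, 7.52% at least 2-fold, and 13.5% were lower by that much, with a median of -0.38. In the shared limma test 2 of 23, Fcnb and Clu, were called higher and 0 lower, where 3.59% of all 10725 genes were called higher and 4.73% lower, and 888 and 1416 of them had an unadjusted p under 0.05 in these directions. The 5 measured genes that start the classical and lectin pathways had medians of 0.48 in wild-type and 0.39 in nude nerve. The regulators, with 10 measured genes in wild-type and 9 in nude nerve, had medians of -0.02 and 0.00. Relative to the medians of all genes, those of the pathway starters were 0.54 and 0.78 and those of the regulators 0.03 and 0.38.

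Of the genes at least 2-fold apart, Fcnb, a ficolin of the lectin pathway made by myeloid cells, was at 3.98 against 1.96 in the wild-type nerve and at 2.41 against 1.62 in the nude nerve. Clu was at 7.04 against 5.03 and at 6.84 against 5.97. The receptor gene Cd93 had log2 ratios of 1.13 and 0.63. Itgb2, the beta chain shared by the complement receptors CR3 and CR4, had 1.35 in wild-type and -0.23 in nude nerve.

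A further 4 genes reached 2-fold in the nude nerve alone. Cd55, which dissociates C3 convertases, was at 3.58 against 1.46 in the nude nerve and at 0.32 against 1.22 in the wild-type nerve, so the direction differed between the pairs. Cfi, the protease that inactivates C3b, had log2 ratios of 1.19 in the nude and 0.19 in the wild-type nerve. C8b, a subunit of the membrane attack complex, was dim, with a log2 ratio of 1.51 in the nude nerve, and was not well above background in the injected wild-type nerve. Vtn, the gene of vitronectin, which blocks membrane insertion of that complex, was lower in both, at -1.39 in the nude and -0.57 in the wild-type nerve. None of these differences between rat types could be tested.

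**Figure D4:**
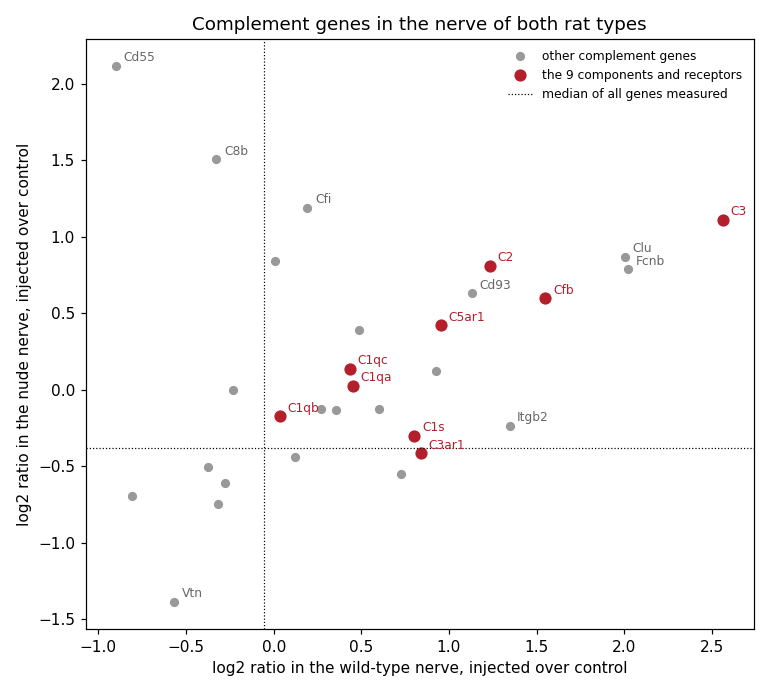
Log2 ratio of injected over contralateral nerve in wild-type rats (horizontal) against nude rats (vertical), 1 point per gene, for the 9 genes (red) and the other complement genes measured in both pairs (grey). Dotted lines are the medians over all genes measured, -0.05 and -0.38; C3, C2 and Cfb lie towards the upper right, and Cd55 lies at the upper left.

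Across the tissues, in the fit over 12 arrays, 13 of 25 other complement genes were called higher and 3 lower in nerve than in DRG, where 31.2% and 11.4% of all genes were. Between nerve and cord 21 were higher and 2 lower in nerve, beside 37.9% and 26.6% of all genes. Between DRG and cord 14 were higher and 2 lower in DRG, beside 27.8% and 32.1% of all genes. Their median differences were 0.76, 1.46 and 0.81, below the 2.17, 3.03 and 1.01 of the 9 genes, and those of all genes were 0.20, 0.22 and -0.02.

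In the DRG none of the 9 genes was 2-fold apart between the sides in either rat type, where 0.489% of all genes were 2-fold higher and 0.517% lower in the wild-type pair, and 0.682% were higher and 0.388% lower in the nude pair. On the injected side, 2 of the 9 genes were higher in the wild-type pair (median -0.15) and 8 in the nude pair (median 0.17). Among all genes 5628 of 10831 were higher in the wild-type and 5113 of 9537 in the nude pair, with medians of 0.01 and 0.02. C3 was the widest in nude rats, at 2.13 against 1.60 (1.45-fold), and was at 1.57 against 1.41 in wild-type rats. C1qb was the widest in wild-type rats, at 7.80 against 8.15, and was at 7.94 against 7.84 in nude rats. C3ar1 was above background on the injected side only of the nude pair, where it was at least 1.19-fold higher. Both injected DRG lay above both contralateral DRG for none of the 9 genes and below them for C1qa, where 10.2% and 8.96% of all genes showed these patterns.

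No gene of the 9 was called in the DRG by limma over both rat types, where 0.0352% of 11376 genes were called higher and 0.00% lower, and 193 and 309 had an unadjusted p under 0.05. The C3 difference was 0.35 with a 95% confidence interval of -0.08 to 0.78 (limma adjusted p = 1.00). Beside the nude DRG values, all 3 measured neutrophil markers and 3 of 4 muscle markers were at least 2-fold higher on the injected side, and 2 of 9 macrophage markers were higher. Of these muscle markers, Myh1 and Ckm were above background on the injected nude DRG array only, which fixed their direction. The summed neutrophil signal was 207 against 57.2 there and 70.5 against 72.0 in wild-type DRG. In wild-type DRG no marker of these lists was 2-fold apart. Their part in the C3 values was not tested.

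In the dorsal cord the lumbar part was compared with the cord above it, so the arms differ in segment as well as in their link to the injected nerve. No gene of the 9 was 2-fold apart, where 0.913% of all genes were 2-fold higher and 0.831% lower in the wild-type lumbar cord, and 0.776% were higher and 0.589% lower in the nude lumbar cord. Of the 9 genes, 6 were higher in the wild-type lumbar cord (median 0.09) and 3 of 8 measured in the nude (median -0.04), beside medians of -0.07 over all genes in both. Among all genes 4460 of 11065 were higher in the wild-type and 4035 of 10689 in the nude lumbar cord. The C1q chains were higher in the lumbar cord of both rat types. C1qc was at 2.47 against 2.05 in wild-type and at 2.55 against 2.15 in nude rats, and C1qb was at 7.11 against 6.68 and at 7.10 against 6.83. C1qa was at 5.38 against 5.23 and at 5.29 against 5.10. Both lumbar arrays were above both rostral arrays for these 3 genes and below them for C1s and C5ar1, with C3ar1 not counted, where 15.0% and 35.0% of all genes showed these patterns.

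By limma over both rat types none of the 9 was called in the cord, where 0.00% of 11229 genes were called in either direction and 836 and 1697 had an unadjusted p under 0.05. C1qc differed by 0.41 (SE 0.10, limma adjusted p = 0.146) and C1qb by 0.35 (SE 0.10, limma adjusted p = 0.179). C3 was at 3.67 against 3.58 in wild-type and at 3.15 against 3.61 in nude rats, opposite in sign. C1s was at 1.60 against 2.13 in wild-type and at 1.69 against 1.82 in nude rats, and C5ar1 at -0.57 against -0.11 and at -0.12 against -0.04. Cfb and C2 differed by at most 0.26 in size. C3ar1 was above background on the rostral wild-type array alone, and was at least 1.26-fold lower in the lumbar cord of that pair.

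Schwann cell markers moved in the same cord pairs, with 4 of 6 at least 2-fold higher in the lumbar cord of both rat types (median 2.42 for wild-type, 1.65 for nude). Of 6 microglial markers, 2 were higher in the lumbar cord of wild-type rats (median -0.12) and 5 in that of nude rats (median 0.17). Of 9 macrophage markers, 3 (median -0.03) and 8 (median 0.09) were higher. Neutrophil markers were lower in the lumbar cord of wild-type rats for all 5 measured, 3 of them at least 2-fold (median -1.10), and higher in that of nude rats for all 3 measured (median 0.82). Elane, a neutrophil marker, and Egr2, a Schwann cell marker, were above background on 1 wild-type cord array only, which fixed their direction. Of 6 central glial markers, 4 were lower in the lumbar cord of wild-type rats (median -0.41) and 6 in that of nude rats (median -0.46), and all 5 central neuron markers were higher in both (medians 0.58 and 0.18). The part of these cells in the lumbar levels of the 9 genes was not tested.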

How the data were processed

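Total RNA pooled from 3 rats per array was labelled with Cy3 and hybridised to 12 Agilent SurePrint G3 Rat GE 8x60K arrays. For the intensity values, the authors extracted spot signals with Feature Extraction (10.7.3.1 in the file headers, 10.5 in the labels), whose processed signal is background-subtracted and corrected for spatial trends. The other values are flags of 0 or 1 set for each spot by the authors' software. The deposited log2 values of 30507 probes, made by the authors in GeneSpring, have sorted columns that differ by at most 0.00153, so all arrays share 1 distribution, and they served as an alternative. No spot was saturated.

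Of 62976 spots per array, 58717 were not controls. Outlier spots were left out, log2 signals of the spots of a probe were averaged, and the median of each array was subtracted. A probe was well above background where most of its kept spots were. RefSeq accessions, matched to an annotation (GRCr8) that postdates the array design, named 18006 of 30367 probes. Where a gene had several probes (2607 genes), the brightest stood for it. No probe sequence was aligned to look for shared targets. Signals below the array's floor, the lowest signal well above background, were set to it after scaling, and a gene needed a probe well above background on 1 array of the pair or fit. In a pair, a gene above background on 1 array only was kept only where that array was the higher. The number of arrays limits the precision.

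Single pairs have 1 array per arm and no test. limma 3.58.1 in R 4.3.3 (lmFit, eBayes) tested the arm within each tissue with rat type as a term, and the tissues with rat type and arm as terms, with Benjamini-Hochberg adjustment and a threshold of 0.05. Its script was tested on simulated data. Each array is a replicate, although by the paper both nerves, and both cord segments, of a rat type came from the same animals. Rat type as a term pairs these arms in the arm tests, but the tissue fit took all arrays as independent. The p-values measure the spread between arrays, and not between separate sets of animals, except in the nerve test of the arm. There limma used 1 variance for all genes, so a p-value does not measure the spread of its own gene. The methods' own tests need replicate arrays and were not run.

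The 9 genes, the 41 other complement genes, the 10 marker lists and the motifs were chosen with earlier results of these data known. All 9 genes were named. Of the other complement genes those at least 2-fold apart in a nerve pair were named, and for each of the 9 the 3 genes with the highest Pearson r among genes well above background on at least 6 arrays. A marker printed with values was singled out after its values were seen. Alternatives tried were cyclic loess, scaling to the 75th percentile, normexp with an offset of 50 (on the median spot signal), quantile normalization, the deposited log2 values, other filters, the mean over probes, outlier spots kept, other model terms, single slides, control-arm arrays and leaving out each array. Promoter sequences are RefSeq's on GRCr8 and were found for 4 of the 9 genes. Other steps used pandas 2.3.3, numpy 2.4.6, matplotlib 3.10.9 and scipy 1.17.1 in Python 3.11.15.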

Additional observations from a re-analysis of the deposited data

Results flagged for a closer look

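The levels of each gene were searched for arrays that stand apart from the other 3 of their tissue by Dixon's criterion, in 27 groups of 4 arrays, of which chance alone marks about 1 in 20. The lumbar nude cord stood apart for C3, at a level of 3.15 where the next array was at 3.58. The lumbar wild-type cord stood apart for C5ar1, at -0.57 where the next array was at -0.12. Neither array stood apart for another of the 9 genes.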

How the results depend on the processing

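Among alternative values of the counts and medians of the 9 genes, 358 stayed within 1.5 times the reported count or fold and 22 moved further. In the shared nerve test the count of genes called higher, 2, was 0 with the 75th percentile and with normexp, and 1 with the deposited log2 values, quantile normalization, and no filter and no floor. The adjusted p of C3 was then 0.0827 with the 75th percentile and 0.715 with normexp, and that of Cfb was 0.0518 with 1 fit over 12 arrays. C2 was called with 1 fit over 12 arrays (adjusted p = 0.0311), cyclic loess (0.00669), no replicate block (0.0176), and a filter on every array (0.0175). In the nude nerve the count at least 2-fold higher, 1, was 2 with the 75th percentile, cyclic loess, the deposited values and quantile normalization, and 0 with normexp, which gave 3 genes at least 2-fold lower and a median of -0.49. Without filter and floor, C3ar1 gave 1 gene at least 2-fold higher in nude DRG and 1 at least 2-fold lower in wild-type cord. For DRG against cord the count higher, 7, was 4 on the first slide only (without C1qc, C2 and Cfb) and 3 with normexp (without C1qb, C1qc, C2 and Cfb), and the count lower, 2, was 1 on the first slide only. For nerve against cord the count lower, 1 (C3), was 0 on the first slide only and with slide as a term, and ranged from 0 to 1 when single arrays were left out. The cause was not tested. No difference past a threshold turned sign under an alternative.

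Over all genes the nude nerve counts at least 2-fold higher and lower, 711 and 1278, were 1128 and 530 with the 75th percentile, 815 and 645 with the deposited values, 817 and 641 with quantile normalization, 887 and 851 with cyclic loess, 4085 and 1653 without filter and floor, and 28 and 4071 with normexp. The nerve test called 385 genes higher and 507 lower, against 78 and 24 with the 75th percentile, 165 and 109 with the deposited values, 152 and 94 with quantile normalization, 178 and 96 without filter and floor, and 0 and 0 with normexp. The labels give no replicate numbers, and rat type stood as the block, which pairs the 2 nerve arrays of each rat type. With no replicate block the nerve test called 543 genes higher and 845 lower, and the DRG and cord tests called none of the 9. Leaving out an array of the nerve test leaves no residual degrees of freedom. Signal over background limits C3ar1, with 4 of 12 levels below it.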
